A study of Mus musculus with 12 samples.

Results

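Microglia are the resident macrophages of the retina and brain, and 35 genes that mark them or other macrophages were followed here in pools of cells picked as retinal ganglion cells. The genes were listed by symbol from the 54232 genes of the deposited count table, with earlier results of these data known. They comprised 8 genes of homeostatic microglia, 16 genes shared by microglia and other myeloid cells, and 11 genes of activated phagocytes. All libraries came from adult male wild-type mice whose optic nerve had been crushed, an injury that severs the axons of ganglion cells, and whose eyes had received an adeno-associated virus into the vitreous. The virus carried Olig1, a transcription factor best known from cells that make myelin, or the reporter GFP, a green fluorescent protein. The 4 groups were Olig1 day 7, GFP day 7, Olig1 day 14 and GFP day 14, named by the virus and the days after the crush, with 3 libraries each. Cells were enriched with beads against CD90.2, picked with a Unipick device in small pools, and amplified with the SMART-Seq HT kit. The labels differ in the number of cells they give for a pool. The labels give a virus time of 14 days for all libraries, do not name the promoter that drives Olig1 or GFP, and do not tie libraries to animals. The p-values thus refer to library-to-library spread, part of which may be technical.

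In healthy tissue microglia hold a homeostatic state marked by the purinergic receptors P2ry12 and P2ry13, the fractalkine receptor Cx3cr1 and the membrane protein Tmem119, under the transcription factor Sall1. Near dying neurons they enlarge their lysosomes, engulf debris and express genes such as Cd68, Gpnmb, Cst7 and Lpl, while homeostatic genes are known to decline. Macrophages that enter from blood or tissue borders share the complement C1q genes and many activation genes with microglia but express little of the homeostatic set. After optic nerve injury, microglia of the inner retina gather around ganglion cells and their axons.

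Libraries held 12534515 to 27602459 counts, and levels are given as CPM, a gene's count scaled to its library's total, unless stated. Where a gene had 0 counts, a level of up to 0.109 CPM in the deepest and 0.239 CPM in the shallowest library (3 counts of the total) cannot be told from 0, and such limits cover counting error only. The pools were checked against 12 ganglion cell markers, whose summed level was 1790, 4001 and 1851 CPM in the Olig1 day 7 libraries and 254, 296 and 215 CPM in the GFP day 7 libraries. It was 175, 3206 and 157 CPM in the Olig1 day 14 libraries and 424, 308 and 203 CPM in the GFP day 14 libraries. The 8 rod markers summed to 533 to 709 CPM in the Olig1 day 7 libraries and to 9845 to 50751 CPM in the GFP day 7 libraries, and the 8 Müller glia markers to 6343 to 9496 CPM with Olig1 and to 24678 to 52662 CPM with GFP. The day 7 pools thus differed in transcripts of retinal neurons and of Müller glia as well as in the genes followed here, and the part of these cells in the day 7 results was not tested. At day 14 the rod markers summed to 823 to 10302 CPM with Olig1 and to 3261 to 44164 CPM with GFP. The Müller glia markers then summed to 16021 to 31474 CPM with Olig1 and to 15473 to 29044 CPM with GFP. Olig1 day 7 libraries 1 and 2 stood apart as a pair. Of 2874 genes with at least 1000 counts in library 1, 0 were without counts in library 2, and the lowest 0.1% of their ratios of CPM (library 2 over library 1) began at 0.140, against at most 0.0257 in the other 131 ordered pairs of libraries. The ratio lay between 0.15 and 0.3 for 55.4% of those genes, against at most 20.4% in any other pair, and the cause was not tested. The Mmp12 call, the balance and the class medians at day 7 are therefore given also without library 2.

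Promoters of members were read as a description of where known myeloid motifs lie near their starts. Windows of 250 bases before to 50 bases after the start, from RefSeq on GRCm38.p6, were available for 24 of the 35 members. Both strands were searched for GAGGAAGT, a binding core of the myeloid factor PU.1 (encoded by Spi1), TGANTCA, the AP-1 site, and the interferon response element. The PU.1 core was found in 2 of 24 members, against 3.69% of 27025 genes with a window, the AP-1 site in 6 of 24, against 8.97%, and the interferon response element in 1 of 24, the promoter of Aif1, against 3.99%. By class, the AP-1 site was present in 5 of 8 activated, 1 of 11 shared and 0 of 5 homeostatic members with a window. The activated ones were Cd68, Cst7, Gpnmb, Itgax and Mmp12, and the shared one was Trem2. The windows below are those of Mmp12, the 1 member that edgeR's test called between Olig1 and GFP at day 7, of Gpnmb and P2ry12, the activated and the homeostatic member whose groups did not overlap at day 14, and of C1qc, the C1q gene with a PU.1 core. Capitals mark the motif found. Mmp12 has a start with a PU.1 core 88 bases upstream on the opposite strand (chr9:7344147-7344446, plus strand) and another with an AP-1 site 44 bases upstream (chr9:7347124-7347423, plus strand). Gpnmb (chr6:49036268-49036567, plus strand) has an AP-1 site 9 bases after its start, C1qc (chr4:136892865-136893164, minus strand) a PU.1 core 195 bases upstream on the opposite strand, and P2ry12 (chr3:59262936-59263235, minus strand) holds none of the 3 motifs.
Mmp12 first start: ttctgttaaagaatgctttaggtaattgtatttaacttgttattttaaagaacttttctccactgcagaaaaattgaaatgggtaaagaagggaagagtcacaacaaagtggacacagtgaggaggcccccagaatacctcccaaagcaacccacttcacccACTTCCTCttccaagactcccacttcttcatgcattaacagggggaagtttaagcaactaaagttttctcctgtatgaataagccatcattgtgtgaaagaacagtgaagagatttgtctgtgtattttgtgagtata
Mmp12 second start: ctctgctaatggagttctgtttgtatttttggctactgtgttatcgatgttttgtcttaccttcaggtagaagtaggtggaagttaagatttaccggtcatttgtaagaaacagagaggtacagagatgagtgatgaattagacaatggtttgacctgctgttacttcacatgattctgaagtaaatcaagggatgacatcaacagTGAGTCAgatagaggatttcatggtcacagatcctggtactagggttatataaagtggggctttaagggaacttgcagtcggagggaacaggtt
Gpnmb: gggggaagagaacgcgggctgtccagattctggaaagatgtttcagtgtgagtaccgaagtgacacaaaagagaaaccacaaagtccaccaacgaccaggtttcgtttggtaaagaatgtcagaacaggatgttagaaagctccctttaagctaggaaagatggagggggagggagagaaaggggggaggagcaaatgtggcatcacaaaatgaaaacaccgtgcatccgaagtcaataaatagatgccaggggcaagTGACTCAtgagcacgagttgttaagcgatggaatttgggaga
C1qc: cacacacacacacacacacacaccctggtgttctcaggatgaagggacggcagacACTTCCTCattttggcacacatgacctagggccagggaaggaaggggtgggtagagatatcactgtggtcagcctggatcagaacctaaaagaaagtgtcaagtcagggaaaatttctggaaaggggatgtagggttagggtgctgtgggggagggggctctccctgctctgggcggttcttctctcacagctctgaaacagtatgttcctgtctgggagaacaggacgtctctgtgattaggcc
P2ry12: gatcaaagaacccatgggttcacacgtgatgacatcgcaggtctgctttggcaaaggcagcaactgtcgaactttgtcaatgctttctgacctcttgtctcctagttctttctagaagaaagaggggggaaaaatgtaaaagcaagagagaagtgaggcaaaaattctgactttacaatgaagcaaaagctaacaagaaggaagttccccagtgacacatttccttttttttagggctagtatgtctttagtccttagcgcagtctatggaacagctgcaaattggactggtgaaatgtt

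The counts of these genes lay mostly in 4 of the 12 libraries. The 35 members summed to 387, 124 and 2207 CPM in the Olig1 day 7 libraries and to 18.7, 19.9 and 1763 CPM in the GFP day 7 libraries. They summed to 18.4, 42.7 and 31.7 CPM in the Olig1 day 14 libraries and to 52.0, 5899 and 8637 CPM in the GFP day 14 libraries. Library 3 of both day 7 groups and libraries 2 and 3 of GFP day 14 were thus rich in them, and 0 of the Olig1 day 14 libraries were. In these 4 libraries 29 to 31 of the 35 members exceeded 1 CPM, against 1 to 12 in the other 8. In pools of cells, fewer cells of a type and less RNA per cell cannot be told apart. The map of members by library shows the 4 rich libraries as bright columns, with Cd74, Mmp12, Lpl, Lgals3, C1qb and Irf8 as the members above 20 CPM in the first Olig1 day 7 library.

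**Figure D1:**
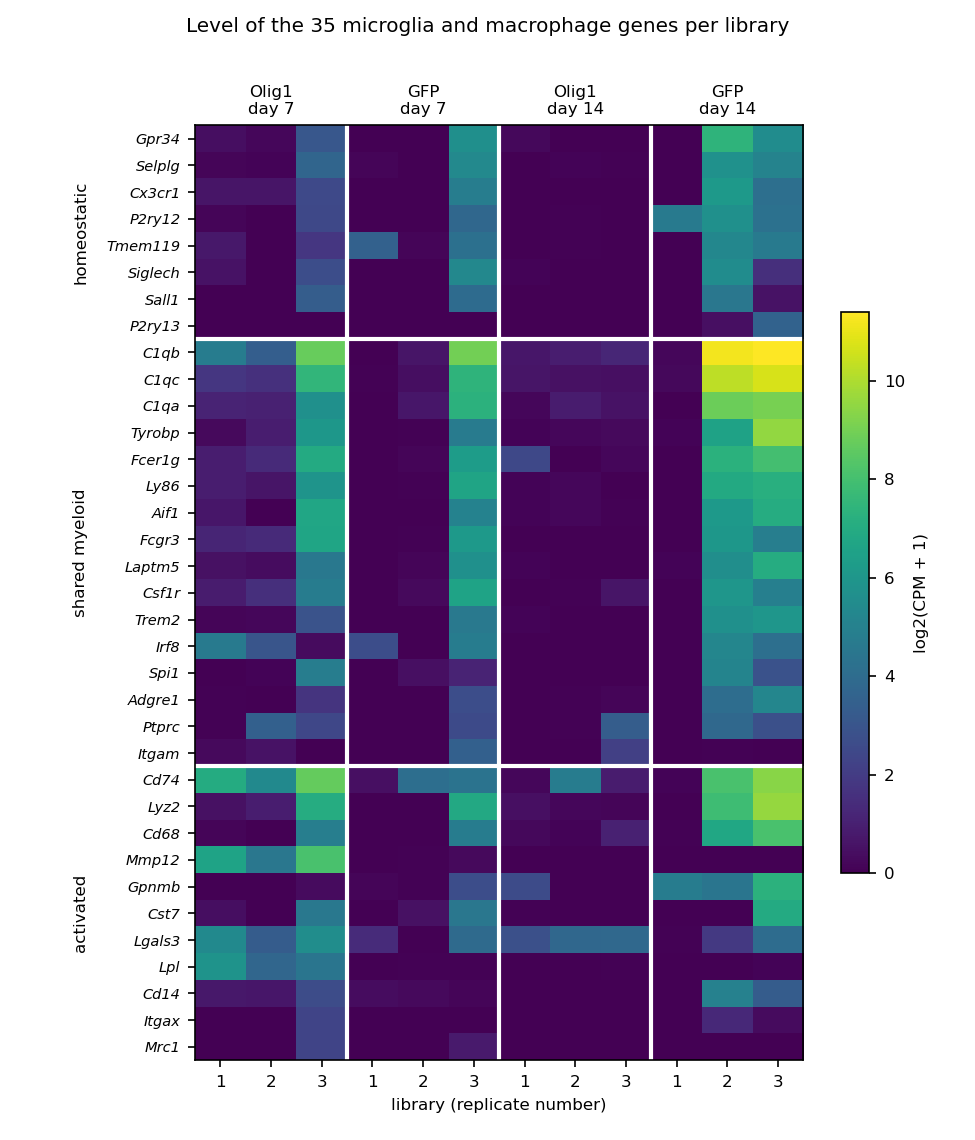
Level of each of the 35 members, as log2(CPM + 1) by colour, in the 12 libraries (columns, by replicate number) of the 4 groups, with members in rows by class and by mean level. C1qb is the highest member in library 3 of both day 7 groups and in GFP day 14 libraries 2 and 3, while the Olig1 day 14 libraries hold between 18.4 and 42.7 CPM of all members together.

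Homeostatic genes were led by Gpr34, a lysophosphatidylserine receptor of microglia (chromosome X, 13632089 to 13640858). It stood at 0.326, 0.160 and 7.64 CPM in the Olig1 day 7 libraries against 0, 0 and 49.7 CPM in the GFP day 7 libraries, and at 0.194, 0 and 0 CPM in the Olig1 day 14 libraries against 0, 167 and 45.8 CPM in the GFP day 14 libraries. Both arms overlapped at each day, and at day 7 each had 1 high library. Selplg, a selectin ligand, had 0.109, 0.0798 and 12 CPM in the Olig1 day 7 libraries against 0.107, 0 and 40.6 CPM with GFP, and 0, 0.0815 and 0.0532 CPM in the Olig1 day 14 libraries against 0, 54.1 and 33.3 CPM with GFP. Cx3cr1, which binds the neuronal chemokine fractalkine, had 0.544, 0.558 and 4.73 CPM in the Olig1 day 7 libraries against 0, 0 and 27.2 CPM with GFP. At day 14 Cx3cr1 had 0 counts in all Olig1 libraries against 0, 68.4 and 16.8 CPM with GFP, so the pooled level was at least 634-fold lower with Olig1.

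P2ry12, the ADP receptor by which microglial processes find injury (chromosome 3, 59216272 to 59262871), separated the arms at day 14. It had 0, 0.0407 and 0 CPM in the Olig1 day 14 libraries against 24.5, 52.5 and 18.1 CPM in the GFP day 14 libraries, which is 1 count against 2507. The groups did not overlap, and GFP library 1 held P2ry12 although its 3 C1q genes together had 9 counts. That library had the fewest genes detected, 10129 against 14123 to 17244 in the others, and only 9 of the members had counts in it. At day 7 P2ry12 had 0.109, 0 and 4.53 CPM with Olig1 against 0, 0 and 12.8 CPM with GFP. Tmem119 showed a like exception in another library, with 10.5 CPM in GFP day 7 library 1, where the C1q genes had 1 count. Its remaining day 7 values were 0.652, 0 and 2.5 CPM with Olig1 and 0.109 and 17.5 CPM with GFP, and at day 14 it had 0, 0.0407 and 0 CPM with Olig1 against 0, 37.2 and 24.5 CPM with GFP. Siglech, a sialic acid binding lectin, Sall1 and P2ry13 completed the class. Siglech and Sall1 reached 45.6 and 22.0 CPM in GFP day 14 library 2 but 1.88 and 0.459 CPM in GFP day 14 library 3, where P2ry13 was highest at 10.8 CPM. GFP day 14 libraries 2 and 3 thus differed in their homeostatic members.

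Among the shared myeloid genes the C1q chains, which together form the first component of the classical complement pathway, stood highest. C1qb (chromosome 4, 136880129 to 136886187) had 26.8, 9.57 and 428 CPM in the Olig1 day 7 libraries against 0, 0.547 and 499 CPM in the GFP day 7 libraries. At day 14 it had 0.630, 0.896 and 1.33 CPM with Olig1 against 0.157, 2326 and 2692 CPM with GFP. C1qb was thus at most 1.33 CPM in the Olig1 day 14 libraries and at most 0.547 CPM in the GFP libraries outside the rich ones. C1qc had 2.45, 1.99 and 180 CPM in the Olig1 day 7 libraries against 0.0533, 0.328 and 169 CPM with GFP, and 0.581, 0.448 and 0.372 CPM at day 14 with Olig1 against 0.196, 1237 and 1656 CPM with GFP. C1qa had 1.20, 1.04 and 51.2 CPM at day 7 with Olig1 against 0, 0.602 and 161 CPM with GFP, and 0.145, 0.815 and 0.479 CPM at day 14 with Olig1 against 0, 456 and 540 CPM with GFP. Per kilobase of exon, C1qb made up 73.4% of the 3 chains in Olig1 day 7 library 3, 65.4% in GFP day 7 library 3, and 66.4% and 64.3% in GFP day 14 libraries 2 and 3. The remainder was shared unequally, C1qc giving 17.4% in Olig1 day 7 library 3, 12.5% in GFP day 7 library 3, and 19.9% and 22.3% in GFP day 14 libraries 2 and 3.

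Receptors and adaptors of phagocytes ranked below the C1q chains in mean level, and not all of them tracked C1q. Tyrobp, the signalling adaptor of Trem2, had 0.217, 0.878 and 64.8 CPM in the Olig1 day 7 libraries against 0, 0.0547 and 25.6 CPM with GFP. At day 14 it had 0.0969, 0.163 and 0.213 CPM with Olig1 against 0.0784, 92.4 and 737 CPM with GFP. Between the 2 rich GFP day 14 libraries Tyrobp thus differed more than C1qb did. Trem2, a lipid-sensing receptor, reached 6.62 CPM in Olig1 day 7 library 3, 23.6 CPM in GFP day 7 library 3, and 52.3 and 62.9 CPM in GFP day 14 libraries 2 and 3. Csf1r, the receptor for the survival factors Csf1 and Il34, reached 26.8 CPM in Olig1 day 7 library 3, 96.4 CPM in GFP day 7 library 3, and 63.4 and 29.6 CPM in GFP day 14 libraries 2 and 3. Csf1r shares 873 exon bases with Hmgxb3 on the opposite strand, and the strand setting of the counting is not given, so its level is uncertain. The Fc receptor genes Fcer1g and Fcgr3, the ionised calcium binding adaptor Aif1, the co-receptor Ly86 and the lysosomal protein Laptm5 were each above 20 CPM in all of the 4 rich libraries. Of these, Fcgr3 was highest in Olig1 day 7 library 3, at 102 CPM, and stood at 28.0 CPM in GFP day 14 library 3. Fcgr3 had 0 counts in the Olig1 day 14 libraries against 0, 1776 and 671 counts in the GFP day 14 libraries, 2447 in all. Its pooled level was thus at least 677-fold lower with Olig1, but the groups overlapped and edgeR did not call it.

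The myeloid transcription factors did not simply follow C1q. Spi1, which encodes PU.1, had 0, 0.0798 and 27.6 CPM in the Olig1 day 7 libraries against 0, 0.383 and 1.23 CPM with GFP, and 0 counts at day 14 with Olig1 against 0, 33.9 and 6.22 CPM with GFP. Irf8, its partner in microglia and other myeloid cells, had 23.8, 7.10 and 0.270 CPM in the Olig1 day 7 libraries against 5.54, 0 and 26.5 CPM with GFP. At day 14 Irf8 had 0 counts with Olig1 against 0, 36.3 and 17.2 CPM with GFP. Irf8 was therefore low in the Olig1 day 7 library with the most C1q and highest in the one that held 99.5% of its activated level in 4 genes. Adgre1, the F4/80 antigen, reached 36.8 CPM in GFP day 14 library 3 and 2.23 to 15.8 CPM in the other rich libraries. Ptprc, the pan-leukocyte antigen CD45, was above 1 CPM in the 4 rich libraries and also in Olig1 day 7 library 2, at 10.1 CPM, and Olig1 day 14 library 3, at 9.42 CPM. Itgam, an integrin chain of the complement receptor, was at most 10.4 CPM and shares 3450 exon bases with Gm49368 on the same strand, so its reads cannot be assigned with certainty.

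Among the activated members Mmp12, the macrophage elastase (chromosome 9, 7344381 to 7369499), was the 1 member that edgeR's test called at day 7. Its counts were 1783, 271 and 4066 in the Olig1 day 7 libraries against 0, 1 and 4 in the GFP day 7 libraries, or 96.9, 21.6 and 275 CPM against 0, 0.0547 and 0.234 CPM. All 6 day 14 libraries had 0 counts. At day 7 Mmp12 rose with Olig1, with a log2 fold change of 10.31 ± 1.76 (SE, edgeR quasi-likelihood test, adjusted p = 0.0466). The call was lost when any 1 library of the comparison was left out, the adjusted p being 0.0722, 0.0666 and 0.15 without Olig1 day 7 libraries 1, 2 and 3 and 0.134, 0.166 and 0.126 without GFP day 7 libraries 1, 2 and 3. It was 0.0796 with Olig1 day 7 libraries 1 and 2 summed as 1 library, an alternative chosen after seeing the data, and 0.0604 with a replicate block. The ratio of Mmp12 between Olig1 day 7 libraries 2 and 1 was 0.223, inside the range in which most abundant genes of this pair lay.

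Lpl, a lipase of lipid-laden phagocytes that other cells also make, had the next smallest p at day 7. It had 57.5, 12.6 and 20.7 CPM in the Olig1 day 7 libraries against 0, 0.0547 and 0.0585 CPM with GFP, and at day 14 it had 1 count in all with Olig1 and 2 with GFP. The ratio of pooled levels at day 7 was 901 (95% counting interval 249 to 7450) for Olig1 over GFP, without passing the test (edgeR adjusted p = 0.185). Between Olig1 day 7 libraries 2 and 1 the ratio of Lpl was 0.219, like that of Mmp12 inside the range of most abundant genes of this pair. Cd74, the invariant chain of antigen presentation, had 128, 41.2 and 411 CPM in the Olig1 day 7 libraries against 0.373, 16.5 and 19.1 CPM with GFP, and 0.145, 26.6 and 0.851 CPM at day 14 with Olig1 against 0.0784, 277 and 661 CPM with GFP. For Cd74 every Olig1 library lay above every GFP library at day 7 and the groups overlapped at day 14, with log2 values of 3.95 ± 2.36 and -5.30 ± 2.52 (edgeR adjusted p = 0.500 and 0.506). Mmp12, Lpl, Lgals3 and Cd74 held 99.5%, 98.2% and 79.2% of the summed activated level in the Olig1 day 7 libraries, against 82.6%, 95.9% and 16.3% in the GFP day 7 libraries, where the first library summed to 2.45 CPM and the second rested on Cd74.

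Lgals3, which encodes the lectin galectin-3, was the 1 member above 1 CPM in every Olig1 library of both days. It had 41.6, 8.94 and 47.3 CPM in the Olig1 day 7 libraries against 1.65, 0 and 14.2 CPM with GFP, and 5.96, 12.9 and 13.4 CPM at day 14 with Olig1 against 0.0392, 2.68 and 15.2 CPM with GFP. The groups overlapped at both days, and the log2 values were 2.71 ± 1.97 and 0.53 ± 1.85 (edgeR adjusted p = 0.588 and 1.0). Gpnmb, a glycoprotein of lysosomes, took another course. It had 0, 0 and 0.270 CPM in the Olig1 day 7 libraries against 0.107, 0.0547 and 5.44 CPM with GFP, and 5.04, 0 and 0 CPM at day 14 with Olig1 against 26.8, 20.4 and 160 CPM with GFP. At day 14 the groups of Gpnmb did not overlap (log2 value -5.64 ± 2.39, edgeR adjusted p = 0.438). GFP library 1, in which the fewest genes were detected, held Gpnmb with 9 counts of C1q. The plot of 6 members shows these courses side by side.

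**Figure D2:**
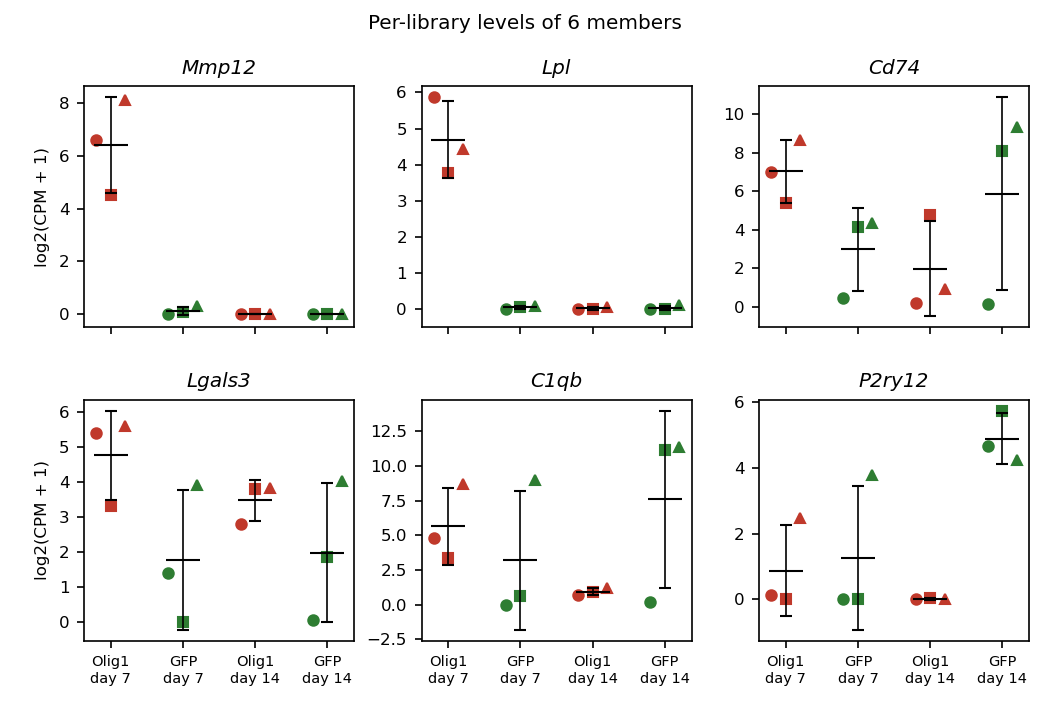
Levels of Mmp12, Lpl, Cd74, Lgals3, C1qb and P2ry12 as log2(CPM + 1) in each library (circle, square and triangle for replicates 1, 2 and 3), with the mean and SD of the 3 libraries in black. Mmp12 and Lpl lie above 0 in the 3 Olig1 day 7 libraries and near 0 elsewhere, whereas P2ry12 lies above 18 CPM in the 3 GFP day 14 libraries and at or near 0 in the 3 Olig1 day 14 libraries.

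Of the lysosomal and monocyte-macrophage members, Lyz2 and Cd68 were high in the 4 rich libraries, while Cst7, Cd14, Mrc1 and Itgax were low or at 0 in at least 1 of them. Lyz2, lysozyme of myeloid cells, had 0.435, 0.878 and 133 CPM in the Olig1 day 7 libraries against 0, 0 and 118 CPM with GFP, and 0.388, 0.163 and 0.106 CPM at day 14 with Olig1 against 0, 230 and 760 CPM with GFP. Lyz2 has a close relative in the genome, Lyz1, with which reads may be shared. Cd68, a lysosomal membrane protein, had 0.109, 0 and 28.6 CPM in the Olig1 day 7 libraries against 0, 0 and 26.7 CPM with GFP, and 0.194, 0.0815 and 1.06 CPM at day 14 with Olig1 against 0.0392, 109 and 279 CPM with GFP. Both arms of these genes had 1 high library at day 7. Cst7, a protease inhibitor of activated microglia, reached 22.6 CPM in Olig1 day 7 library 3, 21.9 CPM in GFP day 7 library 3 and 123 CPM in GFP day 14 library 3, but had 0 counts in GFP day 14 library 2. Cd14, the lipopolysaccharide co-receptor, had 0.652, 0.638 and 5.27 CPM in the Olig1 day 7 libraries against 0.320, 0.219 and 0.117 CPM with GFP, and 0 counts at day 14 with Olig1 against 0, 31.1 and 9.02 CPM with GFP. Cd14 thus lay above the GFP libraries in all Olig1 libraries at day 7, at low levels. At day 14 its pooled level was at least 297-fold lower with Olig1, although the groups overlapped. Mrc1, the mannose receptor of border macrophages, and Itgax, an integrin chain of activated microglia and dendritic cells, were at most 3.99 and 4.06 CPM, both in Olig1 day 7 library 3.

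Homeostatic and activated members were compared within each library by the balance, log2(summed homeostatic CPM + 1) minus log2(summed activated CPM + 1). The summed homeostatic level was 2.23, 0.798 and 46.2 CPM in the Olig1 day 7 libraries against 10.7, 0.109 and 202 CPM with GFP, and the summed activated level was 325, 85.8 and 952 CPM with Olig1 against 2.45, 17.3 and 206 CPM with GFP. The balance was -6.66, -5.59 and -4.33 in the Olig1 day 7 libraries against 1.76, -4.04 and -0.03 in the GFP day 7 libraries, with means of -5.53 ± 1.16 and -0.77 ± 2.97 (SD, n = 3 each). Every Olig1 day 7 library lay below every GFP day 7 library, the closest pair being Olig1 library 3 and GFP library 2. The homeostatic sums of library 2 of both arms lay under the pseudocount of 1 CPM. In GFP library 1, Tmem119 gave 10.5 of the 10.7 CPM. The mean with Olig1 was -5.50 without library 2, and that with GFP turned its sign with the library left out, from -2.04 without library 1 to 0.86 without library 2. In the pair of day 7 libraries rich in C1q, homeostatic genes made up 2.09% of the members' summed CPM with Olig1 and 11.4% with GFP, and activated genes 43.1% with Olig1 and 11.7% with GFP.

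At day 14 the balance of the 2 arms overlapped. The summed homeostatic level was 0.291, 0.163 and 0.0532 CPM in the Olig1 day 14 libraries against 24.5, 447 and 152 CPM with GFP, and the summed activated level was 11.8, 39.8 and 15.4 CPM with Olig1 against 26.9, 672 and 2007 CPM with GFP. The balance was -3.31, -5.13 and -3.96 with Olig1 against -0.13, -0.59 and -3.72 with GFP, with means of -4.13 ± 0.92 and -1.48 ± 1.95. The Olig1 values rest on homeostatic sums under the pseudocount, and with a pseudocount of 10 CPM the Olig1 mean was -1.57 ± 0.64. In Olig1 day 14 libraries 1 and 3 Lgals3 was the highest member, and in library 2 it was Cd74, with 32.5%, 42.1% and 62.3% of the members' summed CPM. GFP day 14 library 1 rested almost wholly on P2ry12 and Gpnmb. Between the 2 rich GFP day 14 libraries, homeostatic genes made up 7.59% and activated genes 11.4% in library 2, and 1.75% and 23.2% in library 3.

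**Figure D3:**
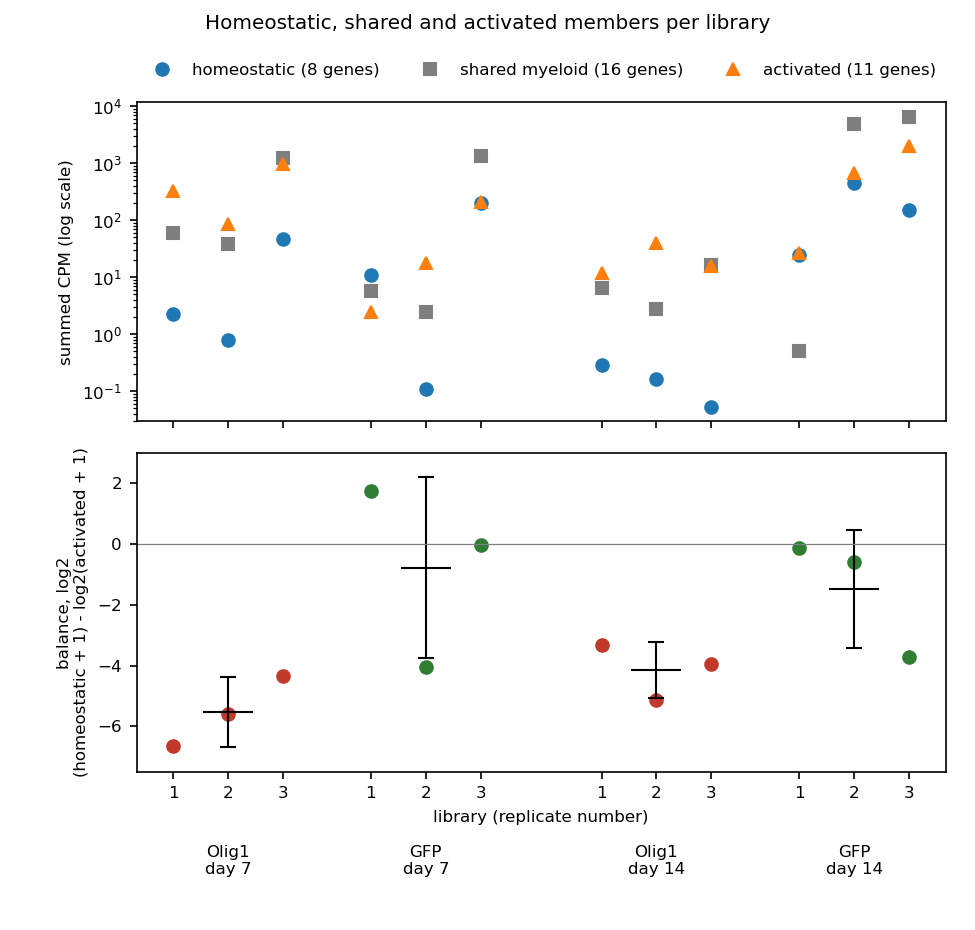
Top, summed CPM of the homeostatic, shared myeloid and activated members in each library on a log axis; bottom, the balance of homeostatic over activated members on the log2 scale for each library, with the mean and SD of 3 libraries in black. The 3 Olig1 day 7 libraries lie between -6.66 and -4.33, below the 3 GFP day 7 libraries, and at day 14 GFP library 3 (-3.72) lies within the range of the Olig1 libraries.

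Whether the virus with Olig1 changed the transcripts of these pools after injury was tested against the spread between libraries. The tests were run on all genes, with 31 of the 35 members passing the filter on low counts (P2ry13, Itgam, Itgax and Mrc1 did not). At day 7, 1 of the 31 was called, Mmp12, and it was higher with Olig1. Over all 14985 genes tested 0.227% were called, 0.140% higher and 0.0868% lower. DESeq2 called 2 of 29 members with an adjusted p, Mmp12 and Lpl, against 6.73% of all genes. For 4 members (12.9%) every Olig1 library lay above every GFP library, against 9.40% of all genes, and for 0 members below, against 9.01%. The 4 were Mmp12, Lpl, Cd74 and Cd14, all of the activated class. Their CPM in Olig1 library 2 over library 1 was 0.223, 0.219, 0.323 and 0.978. As these 2 libraries stood apart as a pair, the 3 Olig1 libraries may not be independent. The median log2 fold change of the 31 members was 0.02, beside -0.03 for all genes, and it was -2.12 for 7 homeostatic, 0.12 for 15 shared and 2.71 for 9 activated members. The homeostatic members were all negative (-3.13 to -0.70) and 8 of 9 activated members were positive (7 of 9 with DESeq2 size factors, and 5 of 9 without Olig1 library 3, without GFP library 1 or without GFP library 2), with Gpnmb at -4.19 ± 2.35. These medians hang on library 3 of each arm. Without Olig1 day 7 library 3 they were -5.72, -3.93 and 1.92 for homeostatic, shared and activated members, and without GFP day 7 library 3 they were 8.06, 8.29 and 5.42. Without Olig1 day 7 library 2 they were -1.81, 0.42 and 3.04.

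At day 14, 0 of the 31 members were called by edgeR (adjusted p from 0.438 to 1.0), against 0.0400% of all genes, 0.0200% in each direction. An unadjusted p under 0.05 was reached by 25 members (80.6%), against 10.4% of all genes, and DESeq2 called 19 of 29 members lower with Olig1, against 5.54% of all genes called. The DESeq2 calls comprised 4 homeostatic members (P2ry12, Tmem119, Cx3cr1 and Selplg), 12 shared members, among them the 3 C1q genes, and 3 activated members (Cd14, Cd74 and Lyz2). The GFP counts behind these values lay almost wholly in libraries 2 and 3, apart from those of P2ry12 and Gpnmb. The median log2 fold change was -10.02 over the 31 members (-9.31 with members of 3 counts or fewer in the Olig1 arm at their bound or pooled ratio), beside 0.09 for all genes. It was -10.07 for homeostatic (-9.31 at the bound), -10.17 for shared (-9.46 at the bound) and -5.64 for activated members. The smallest p-values belonged to Cd14 (log2 value -11.19 ± 3.36) and P2ry12 (-10.56 ± 3.39, pooled ratio 2082, 95% counting interval 373 to 82256, lower with Olig1), both with an edgeR adjusted p of 0.438. Lgals3 was the 1 member with a positive value, 29 were negative, and Mmp12 had no counts to compare. Ptprc, at -1.10 ± 2.85, was nearest to 0 among the negative members with over 3 counts in either arm. Groups that did not overlap were found for 0 members higher and for 2 lower with Olig1 (6.45%), P2ry12 and Gpnmb, against 7.78% and 4.12% of all genes. Without GFP day 14 library 3 the medians were -10.14, -9.17 and -3.68 for homeostatic, shared and activated members, and 3 of the 9 activated members were positive.

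**Figure D4:**
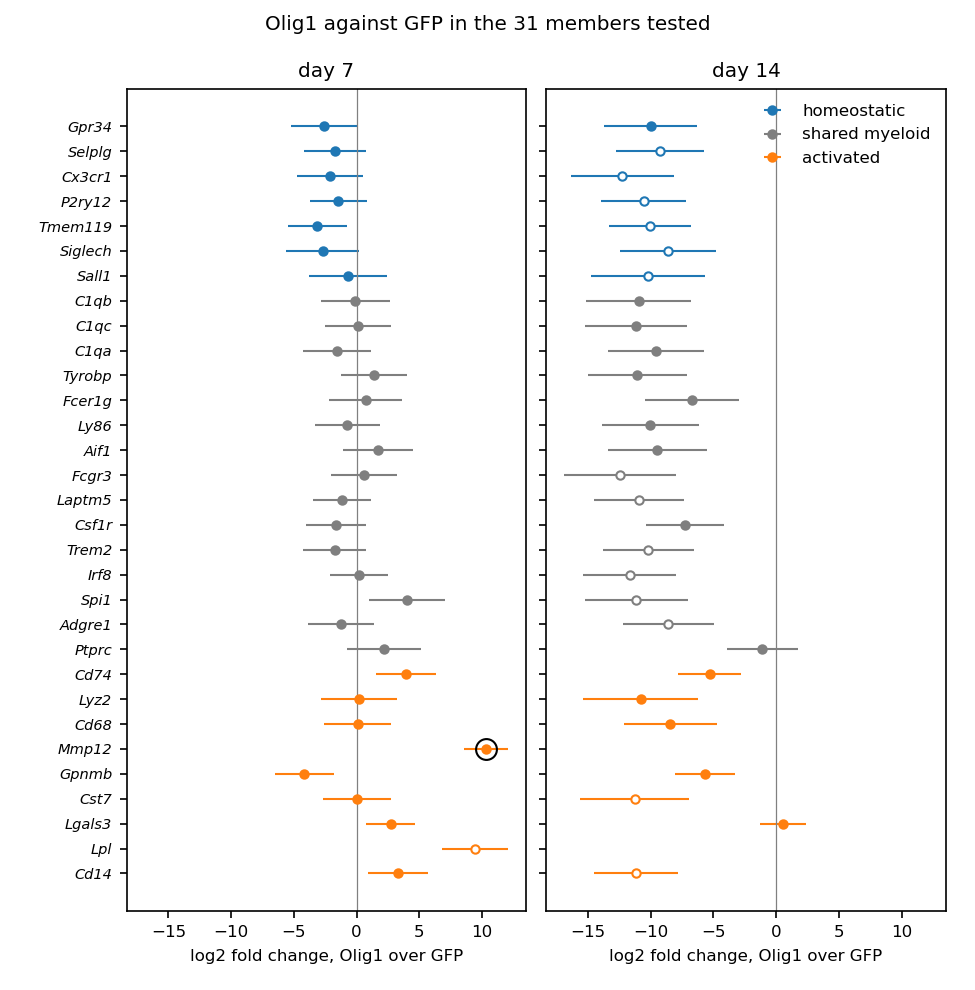
Log2 fold change of Olig1 over GFP (points) with its SE (bars) for the members tested at day 7 (left) and day 14 (right), coloured by class. The ring marks Mmp12, the call at day 7; open points are members with 3 counts or fewer in one arm, whose fitted value depends on the fit's prior count, and Mmp12 and Lpl, with 3 counts or fewer in both arms, are not drawn at day 14. At day 7 the homeostatic members lie below 0 and 8 of 9 activated members above it (7 of 9 with DESeq2 size factors), while at day 14 all drawn members except Lgals3 lie below 0.

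Over the mean of both days 0 of 31 members were called by edgeR, against 0.654% of all genes (0.380% higher and 0.274% lower), while 21 (67.7%) had an unadjusted p under 0.05, against 14.9% of all genes, and DESeq2 called 15 of 29, 13 lower and 2 higher with Olig1, against 8.22% of all genes. The median log2 fold change was -5.38, beside 0.06 for all genes. Without the filter on low counts edgeR called Cx3cr1 and Tmem119, both lower. Among the cell type markers, edgeR with the filter called the rod genes Gnat1, Pde6g and Sag lower and the ganglion cell gene Slc17a6 higher over the mean of both days. At day 7 Pde6g was the only such marker called, lower with Olig1 (log2 value -5.61 ± 0.86, edgeR adjusted p = 0.0178). The difference of the Olig1 effect, day 14 minus day 7, was called for 0 members by edgeR, against 0% of all genes, with 14 members (45.2%) under an unadjusted p of 0.05, against 9.90% of all genes, and 11 of 29 called lower by DESeq2, against 3.89% of all genes. All 31 fitted differences were negative, with a median of -9.28 beside 0.07 for all genes, although that of Mmp12 cannot be estimated, since neither arm had a count at day 14.

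Between the days within each virus, 0 members were called by edgeR, against 0.0334% of all genes with Olig1 (0.00667% higher and 0.0267% lower) and 0% with GFP. With Olig1, 8 members (25.8%) had an unadjusted p under 0.05, against 11.8% of all genes, and DESeq2 called 10 of 29 lower at day 14, against 4.64% of all genes. Mmp12 was at least 2855-fold lower at day 14 than at day 7 in the Olig1 libraries, at 0 against 6120 counts (edgeR adjusted p = 0.0544), and its adjusted p was 0.0489 without Olig1 day 7 library 2. Lpl had 1 count at day 14 against 1523 at day 7, a ratio of 2131 (95% counting interval 382 to 84235). With GFP, 3 members (9.68%) had an unadjusted p under 0.05, against 10.3% of all genes, DESeq2 called 0 of 29, against 4.63% of all genes, and the median was 2.83, or 10.37 without GFP day 7 library 3. The span with Olig1 minus the span with GFP equals the difference of the Olig1 effect tested above. By the labels the virus time was 14 days at both days, so its timing relative to the crush differed between the days. In these comparisons and in that difference, days after the crush and this timing cannot be told apart.

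Markers of other blood-derived cells were read beside these results. The 7 border macrophage markers summed to 0.652, 0.479 and 32.9 CPM in the Olig1 day 7 libraries against 28.7, 62.0 and 17.4 CPM with GFP, and to 0, 0.0407 and 0 CPM at day 14 with Olig1 against 0, 14.6 and 140 CPM with GFP, and Cd163 had 0 counts in every library. Ms4a7, a border and infiltrating macrophage marker, gave 124 CPM of the sum in GFP day 14 library 3 and 32.7 CPM in Olig1 day 7 library 3. The same GFP day 14 library held 132547 CPM of 7 B and plasma cell markers, or 13.3% of its counts, against at most 67.4 CPM in any other library. It was also the highest library for 16 of the 35 members, among them Cd74 at 661 CPM. The 7 T cell markers summed to at most 0.163 CPM in any library, and of 7 neutrophil markers 6 had 0 counts throughout, S100a8 and S100a9 among them. The 6 monocyte markers summed to 0.109 to 110 CPM, the highest from Vcan, which other cells also express, in GFP day 7 library 2. The part of these cells in the members' levels was not tested.

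Further genes of the same cells and of their signals with neurons were read from lists of other microglia genes (15 of 20 tested), other activation genes (20 of 24), ligands and brakes of microglia (9 of 11) and other complement genes (12 of 15). Their lowest edgeR adjusted p between Olig1 and GFP was 0.0609 at day 7, among the other activation genes, and 0.438 at day 14. Cd9 was called when both days were averaged. The other microglia genes had a median log2 fold change of -0.55 at day 7 and -6.67 at day 14. Among them the lysosomal protease Ctss stood at 447 CPM in Olig1 day 7 library 3, 1582 CPM in GFP day 7 library 3, and 1841 and 2799 CPM in GFP day 14 libraries 2 and 3, against at most 14.4 CPM elsewhere. By contrast the other activation genes had medians of -0.82 at day 7 and -1.0 at day 14. Cd9, a tetraspanin that many cells make, fell with Olig1 over the mean of both days, with a log2 fold change of -2.19 ± 0.46 (edgeR adjusted p = 0.0408). It did not follow C1q, with 1730 CPM in GFP day 14 library 1. Ctsz, a cathepsin, had 56.6, 43.5 and 47.4 CPM in the Olig1 day 14 libraries against 98.4, 320 and 505 CPM with GFP, without passing (edgeR adjusted p = 0.438). Inflammatory cytokines were scarce. Tnf had 0 counts in every library, Il1b reached 0.657 CPM, and the chemokines Ccl3, Ccl4 and Ccl2 were high in GFP day 7 library 3 alone, at 139, 135 and 70.4 CPM.

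On the side of neurons, Cx3cl1, the fractalkine ligand of Cx3cr1, had 87.6, 23.7 and 84.1 CPM in the Olig1 day 7 libraries against 46.7, 5.97 and 43.5 CPM with GFP, and the groups overlapped. Cd200, a surface protein of neurons that restrains microglia, had 125, 24.3 and 63.3 CPM in the Olig1 day 7 libraries against 2.5, 3.78 and 4.97 CPM with GFP, without passing (log2 value 4.26 ± 1.40, edgeR adjusted p = 0.246). Olig1 day 7 libraries 1 and 2 stood apart as a pair, as given above. Every Olig1 library lay above every GFP library for Cd200 at day 7, in libraries whose ganglion cell markers differed in the same direction. Its receptor gene Cd200r1 had 0 counts in every library. Csf1 and Il34, the ligands of Csf1r, were at most 38.7 and 2.91 CPM, both in Olig1 day 14 libraries.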

How the data were processed

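RNA was measured in 12 pools, and the authors deposited raw counts of reads per Ensembl gene, with FastQC, HISAT2 and HTSeq on mm10 named in the submitters' processing notes. Tool versions, the annotation and the use of strand were not given in the sources used here. The series table was used, since 4 per-sample files ended early and lacked 2.73% to 14.0% of a library's counts. Of the genes present in both, 0 differed, and 0 columns were left unused. Of 54232 IDs, 54165 were given symbols and coordinates from GENCODE M21 on GRCm38.

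Counts were tested with edgeR 4.0.16 in R 4.3.3 (TMM, the filterByExpr filter at its minimum count of 10, robust quasi-likelihood, 1 fit of 12 libraries on 4 groups), which left 14985 genes. A gene was called when its Benjamini-Hochberg adjusted p over all of them was under 0.05. The procedure was run on data simulated with the same spread for every gene. These lacked the swings between libraries of a group seen here, so the run does not measure power or error for the members. Depth was 12534515 to 27602459 counts. A group at 0 counts was set to 3 counts, which gives a bound, and 1 to 3 counts gave a pooled ratio with a 95% exact counting interval. Counts per kilobase used the union of exons.

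The members and lists were chosen with earlier results of these data known, so no list was tested and medians are descriptions. Libraries are given in full for up to 4 members of highest mean CPM per class, every member called, and the 2 of smallest p at each day. For most genes of other lists, called ones included, only some libraries or none are given. Further members and list genes with values were chosen after their values were seen; not every gene of the other lists picked so is printed. Alternatives were DESeq2 1.42.0 and its size factors, no filter, a replicate block, only the compared groups, each library left out, and other forms of the balance. The labels speak of batches without naming their libraries. Promoters were taken from RefSeq tables. Promoters of Cd14, Cd74, Lpl, Gpr34, Selplg, Tmem119, Adgre1, C1qa, Csf1r, Spi1 and Tyrobp were not used here. Tables were made in Python 3.11.15 with pandas 2.3.3, plots with matplotlib 3.10.9.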

Additional observations from a re-analysis of the deposited data

How the results depend on the processing

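The count of members called at day 7 was 1 without a filter and with only the compared groups in the fit. It was 0 with DESeq2 size factors, where Mmp12 had an adjusted p of 0.0524, with the replicate block and with Olig1 day 7 libraries 1 and 2 summed. It was 0 to 0 over the libraries left out, and 2 by DESeq2. DESeq2 called 19 members at day 14, 15 for the mean of the days, 11 for the difference of the days and 10 between days with Olig1. Without a filter edgeR called 2 for the mean of the days and 1, Mmp12, between days with Olig1, where the count was 0 to 1 over the libraries left out.

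Leaving out 1 library moved the median of members between -4.73 and 8.09 at day 7, -7.24 and -0.95 for the mean of the days, -16.43 and -4.88 for the difference of the days, -7.88 and -2.30 between days with Olig1, and 1.90 and 10.37 between days with GFP. At day 14 it stayed between -10.72 and -8.93. With only the compared groups in the fit the day 14 median was -7.34, but over a smaller set of members. The filter then kept 1 homeostatic, 6 shared and 4 activated members, against 7, 15 and 9 in the main fit. With the replicate block the median between days with Olig1 was -3.68, and the cause of that shift was not tested. With a pseudocount of 10 CPM the balance was -4.01 in Olig1 day 7 and -1.57 in Olig1 day 14 libraries, and without Lgals3, Lpl and Gpnmb it was -2.19 in Olig1 day 14 libraries.

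With 3 libraries a group, it cannot be decided whether replicate numbers pair the samples. Correlations of same-numbered deviations ran from -0.065 to 0.044, and every sample matched its own number best only between the Olig1 and GFP day 7 groups. The fit with the replicate block called 0 members at either day, and 0 over their mean.

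Depth limits members under about 0.24 CPM, which cannot be told from 0 in the shallowest library. With 3 libraries a group, P2ry12 at a pooled ratio of 2082-fold at day 14 did not pass edgeR's test.

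Over all genes, edgeR called 34 at day 7, against 218 without a filter, 930 by DESeq2 and 1 to 58 over the libraries left out. At day 14 it called 6, against 23 without a filter, 1 with the replicate block, 0 with only the compared groups, 750 by DESeq2 and 0 to 6 over the libraries left out. Over both days it called 98, against 401 without a filter, 64 with the block, 36 with the libraries summed, 1136 by DESeq2 and 26 to 133 over the libraries left out. For the difference of the days it called 0, against 40 without a filter, 1 with the block and 527 by DESeq2. Between days it called 5 with Olig1, against 59 without a filter and 628 by DESeq2, and 0 with GFP, against 13 without a filter and 640 by DESeq2.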
